A study of Danio rerio with 7 samples.

Results

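The 200 most abundant genes of the wild-type zebrafish hindbrain were taken as the 200 gene IDs with the highest mean CPM over the 4 Cnt libraries, out of 32189 IDs in the table. They were thus selected on measured values, the Cnt levels. CPM is the count of a gene scaled to the total of its library, so it states the share of counts that the gene takes. The libraries are bulk RNA-seq of the dissected hindbrain of 1 embryo each at 24 hpf (hours after fertilisation), and the sample labels also name surrounding tissue. By the study's methods, dissections were screened by qPCR before sequencing. The 3 Fgf20aHOM libraries are from homozygous mutants for fgf20a (the dob line), a gene for a secreted fibroblast growth factor, and these embryos were bred from homozygous parents. The 4 Cnt libraries came from wild-type (wt) embryos of the LondonAB strain, and all embryos were grown at 28.5 °C. Mutant line and genotype differed together and no littermate controls were among the samples, so effects of the line and of the mutation cannot be told apart. The Fgf20aHOM libraries are called F2, F3 and F4 after the columns of the table. The Cnt levels chose the members, so a high level in Cnt is not a finding. Every comparison with Fgf20aHOM below also uses those same Cnt values.

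At this stage most hindbrain cells are dividing neural progenitors, and neurons have begun to form. Genes that dominate the RNA of such tissue are mostly those every growing cell needs. Ribosomal proteins and elongation factors make protein, tubulins and actins build the cytoskeleton, and hnRNP proteins package and splice RNA. High mobility group (HMG) proteins and histone chaperones shape chromatin, and PCNA, the MCM helicase and ribonucleotide reductase serve DNA replication. Many zebrafish genes exist as a and b copies left by a genome duplication of the teleost ancestor, so a function can be shared by several IDs. CPM is not corrected for gene length, so a CPM compares a gene between libraries and says how many counts it takes. It does not rank genes by transcript number.

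Counts per library were 52900433 to 55915518 in Fgf20aHOM and 59800936 to 69801072 in Cnt, with no overlap (exact two-sided permutation p = 0.0571, the smallest that 3 against 4 libraries can give). Both IDs with the symbol FGF20 were low and their groups overlapped. ENSDARG00000007356 had 3.01 to 4.85 CPM in Fgf20aHOM and 1.93 to 6.72 CPM in Cnt, and ENSDARG00000086070 had 4.83 to 9.53 CPM in Fgf20aHOM and 3.44 to 15.7 CPM in Cnt. These levels do not check the labels of a mutation that need not alter RNA level. Hindbrain progenitor markers (sox3, sox2 and others, 8 IDs) summed to 2669 to 3300 CPM in Fgf20aHOM and 1940 to 2852 CPM in Cnt. The 6 neuron marker IDs summed to 1926 to 2324 CPM in Fgf20aHOM and 1813 to 1866 CPM in Cnt. Of the tissues around the hindbrain, head mesenchyme markers (4 IDs) reached 576 to 871 CPM in Fgf20aHOM and 271 to 620.3 CPM in Cnt. The pharyngeal arch marker (1 ID) had 14.5 to 27.0 CPM in Fgf20aHOM and 5.60 to 13.0 CPM in Cnt, without overlap. In CPM the groups did not overlap for the neuron marker sum either. Of the 6 neuron IDs, 4 were fitted higher in Fgf20aHOM and 2 lower. Of all single genes tested, 17.2% did not overlap in CPM. Otic vesicle markers (4 IDs) summed to 31.3 to 71.9 CPM in Fgf20aHOM and 67.3 to 416 CPM in Cnt. Muscle markers (7 IDs) ranged between 8.14 and 252 CPM in Fgf20aHOM and between 2.69 and 196.4 CPM in Cnt. Blood and lens markers stayed under 20 CPM in every library, and the lens crystallin CRYAA had no count in any.

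The 200 members took 27.4%, 30.3% and 28.5% of all counts in Fgf20aHOM F2, F3 and F4, against 31.7%, 29.8%, 29.6% and 33.4% in Cnt 1 to 4. The means were 28.7% ± 1.496 in Fgf20aHOM (SD, n = 3) and 31.1% ± 1.78 in Cnt (SD, n = 4), and the groups overlapped. The first 100 members alone held 21.2% ± 1.19 in Fgf20aHOM and 23.2% ± 1.75 in Cnt. The first 20 held 9.18% ± 0.799 in Fgf20aHOM and 11.1% ± 1.17 in Cnt. Here every Fgf20aHOM library lay below every Cnt library. The sums of the first 10 (6.01% ± 0.583 in Fgf20aHOM, 7.85% ± 1.19 in Cnt) and of the first 50 overlapped. These 20 were ranked on the same Cnt values. The separation was narrow, with 10.02% in the highest Fgf20aHOM library and 10.07% in the lowest Cnt library. The gap includes that of the first ID, ENSDARG00000080337, which alone took 2.60% ± 0.309 in Fgf20aHOM and 3.70% ± 0.151 in Cnt. It also includes that of the RRM2 member described below, which averaged 0.00119% in Fgf20aHOM and 0.362% in Cnt. The difference in means of either ID alone was larger than the narrow separation between the libraries.

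ENSDARG00000080337 stood far above the rest, with a mean CPM in Cnt of 36969 against 7471 for the second. It has no symbol in the names table, and neither a function nor a type of RNA can be given for it. It took 2.55%, 2.94% and 2.33% of counts in Fgf20aHOM F2, F3 and F4, and 3.60%, 3.73%, 3.56% and 3.90% in Cnt 1 to 4. All Fgf20aHOM libraries were thus below all Cnt libraries. The difference did not pass the test (log2 fold change −0.59 ± 0.20 SE, edgeR quasi-likelihood test, adjusted p = 0.196). Without this ID the other 199 members took 26.1% ± 1.29 in Fgf20aHOM and 27.4% ± 1.68 in Cnt.

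The next places in Cnt were held by krt4, a type II keratin of the outer skin layer, by HMGB2, a chromatin protein that bends DNA, and by PCNA, the sliding clamp of DNA polymerase. They averaged 4071, 4862 and 3808 CPM in Fgf20aHOM, and 7471, 6276 and 4562 CPM in Cnt. MT-CO1, a subunit of cytochrome c oxidase read from the mitochondrial genome, averaged 5118 CPM in Fgf20aHOM and 4350.4 CPM in Cnt. The clone-named gene si:ch211-222l21.1 followed with 5362, 6422 and 5333 CPM in Fgf20aHOM F2, F3 and F4 and 4459, 4516, 4329.5 and 3968 CPM in Cnt 1 to 4. Its Fgf20aHOM libraries all lay above Cnt, and the difference did not pass the test (log2 fold change 0.33, edgeR adjusted p = 0.431). Over the 17 fits made with edgeR, DESeq2 or limma-voom, the adjusted p lay between 0.172 and 0.693. Further down the first 20 came khdrbs1a (an RNA-binding splicing regulator), HMGN2 and hmgn1a (nucleosome binding), ptmab and SET (acidic histone chaperones), and RRM2 (the small subunit of ribonucleotide reductase). PNRC2, MT-CO2, hmga1a, HSPA8 (a constitutive Hsp70 chaperone), eef1a1l1 (translation elongation factor 1 alpha), cyt1l, SLC25A5 (the mitochondrial ADP/ATP carrier) and the tetraspanin CD81 made up the rest.

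Of the 200 members, 197 had a symbol and 3 did not. The largest class by number and by counts was chromatin, with 34 members that took 5.43% ± 0.679 of all counts in Fgf20aHOM and 5.93% ± 0.566 in Cnt (SD, n = 3 and 4). In Cnt this was 19.1% of all counts on the 200 members. The 10 HMG genes alone took 2.48% ± 0.429 in Fgf20aHOM and 2.72% ± 0.268 in Cnt. Besides HMGB2 they were HMGN2, hmga1a, hmgn1a, hmgb2b, hmgn7, HMGB3, hmgb1b, hmgn6 and hmgn1b. The class also held the replacement histones H3-3B and h3f3a, the deacetylase HDAC1, the heterochromatin proteins CBX5 and CBX3, and the chaperones NASP, NAP1L1 and npm1a. Chromatin IDs over the whole table numbered 171 tested, of which edgeR called 1 higher and 1 lower in Fgf20aHOM (adjusted p up to 0.01, 2-fold or more and normalised counts over 30), beside 0.23% and 0.209% of all genes.

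RNA binding and splicing held 26 members with 2.91% ± 0.0876 of counts in Fgf20aHOM and 2.74% ± 0.0894 in Cnt. Among its highest members were khdrbs1a and the RNA helicase DDX5. The 5 members named hnRNP took 0.651%, 0.661% and 0.622% in Fgf20aHOM F2, F3 and F4. They took 0.505%, 0.531%, 0.539% and 0.458% in Cnt 1 to 4. Their sum was thus higher in each Fgf20aHOM library than in any Cnt library. A share over all genes was not worked out for such sums. Translation was covered by 24 cytosolic ribosomal protein members (2.31% ± 0.226 in Fgf20aHOM, 2.37% ± 0.172 in Cnt), with RPL19, RPS2 and RPL3 at the top. A further 9 members were classed with translation factors from their symbols alone (1.22% ± 0.0771 in Fgf20aHOM, 1.15% ± 0.108 in Cnt), led by eef1a1l1, TPT1 and EIF5A2. No ribosomal protein ID among the 99 tested in the whole table was called by edgeR (beside 0.439% of all genes) or by DESeq2 (beside 3.08%), and 4 had an unadjusted edgeR p under 0.05 (beside 15.6%).

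Tubulins, actins and other cytoskeleton genes held 17 members with 2.76% to 3.03% of counts in Fgf20aHOM, a mean of 2.87% ± 0.142, against a mean of 2.47% ± 0.116 in Cnt, and the sums did not overlap. Most members did not share this direction, since 6 had a fitted log2 fold change above 0 and 11 below, with a median of −0.02 and a range of −2.36 to 0.76. The 5 tubulin members took 1.25%, 1.12% and 1.15% in Fgf20aHOM F2, F3 and F4, and 0.853%, 1.00%, 0.917% and 0.849% in Cnt 1 to 4. The cytoplasmic actins actb1 and actb2 together took 1.04%, 0.692% and 0.647% in Fgf20aHOM F2, F3 and F4, and 0.526%, 0.635%, 0.583% and 0.331% in Cnt 1 to 4. Both sums were higher in every Fgf20aHOM library, for the actins by a narrow margin. Taken singly, actb1 and actb2 each overlapped between the groups in CPM. No share over all genes was worked out for these sums. None of the 210 cytoskeleton IDs tested in the whole table was called by edgeR, beside 0.439% of all genes. An unadjusted p under 0.05 was reached by 29 (22 higher, 7 lower in Fgf20aHOM), beside 15.6% of all genes, and DESeq2 called 4, beside 3.08%.

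DNA replication and cell division held 19 members, among them PCNA, RRM1 and RRM2 (the subunits of ribonucleotide reductase), RPA1, FEN1, mki67, CCND1 and 4 MCM helicase subunits. They took 2.04%, 2.21% and 2.23% in Fgf20aHOM F2, F3 and F4, and 2.73%, 2.52%, 2.56% and 2.83% in Cnt 1 to 4, without overlap. Much of that gap came from the RRM2 member. Without it, the other 18 took 2.16% ± 0.104 in Fgf20aHOM and 2.30% ± 0.0793 in Cnt. The groups then overlapped, but only just, with 2.227% in the highest Fgf20aHOM library and 2.225% in the lowest Cnt library. The 4 MCM members took 0.424% ± 0.0962 in Fgf20aHOM and 0.359% ± 0.0579 in Cnt. The class of chaperones and protein turnover (15 members, 1.83% ± 0.0384 in Fgf20aHOM, 1.68% ± 0.199 in Cnt) ran from HSPA8, sumo3a and HSP90AB1 to proteasome subunits and CCT chaperonin subunits.

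The remaining classes were smaller. The 6 members placed in the mitochondrial genome by symbol took 1.29% ± 0.280 in Fgf20aHOM and 1.36% ± 0.261 in Cnt. Of these, 3 were subunits of cytochrome c oxidase. The 8 signalling members included the calmodulins calm3b and CALM2 and LFNG, a glycosyltransferase that tunes Notch. The 7 membrane and matrix members included CD81, the proteoglycan sdc4 and hapln1a. Members classed as neural were few. MDK (midkine, a heparin-binding growth factor) and LRRN1 (a leucine-rich repeat membrane protein) averaged 1653 and 1740.2 CPM in Fgf20aHOM, and 1944 and 1779 CPM in Cnt. The transcription factor members were SOX3, which keeps progenitors undifferentiated, SOX11, ID1 (an inhibitor of bHLH factors) and NR2F6. SOX3 had 1298, 1512 and 1528 CPM in Fgf20aHOM F2, F3 and F4, and 1377, 1715, 1013 and 1275 CPM in Cnt 1 to 4, and its groups overlapped widely. malat1, a nuclear RNA, was the only member classed as noncoding by its symbol. The 3 members without a symbol, ENSDARG00000080337 among them, were not classed. malat1 had 1509 to 3126 CPM in Fgf20aHOM and 986 to 2556 CPM in Cnt.

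Within the ribosomal protein class the fitted differences between groups were mostly small. The fitted log2 fold changes of the 24 ran between −0.42 and 0.44. They were below 0 for 19 and above for 5, beside 52.7% of all genes tested below 0. None had an unadjusted edgeR p under 0.05, beside 15.6% of all genes. RPLP0, a stalk protein of the large subunit, had 1279.5, 888 and 813 CPM in Fgf20aHOM F2, F3 and F4, and 666, 836, 807 and 482 CPM in Cnt 1 to 4. RPL19 averaged 1464 CPM in Fgf20aHOM and 1779 CPM in Cnt, and its highest library was Cnt 4 (2269.7 CPM). RPL3 was instead highest in Cnt 2, with 2202 CPM, and lowest in Cnt 4, with 1071 CPM.

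The mitochondrial genome members shared part of their order between libraries, but the size of the differences varied. Of the 6, 5 were lowest in Cnt 2 and 4 were highest in Cnt 4 among the Cnt libraries. F2 was the lowest Fgf20aHOM library for 5 of them. These counts were not made over all genes tested. MT-CO1 had 4819.7, 5974 and 4562 CPM in Fgf20aHOM F2, F3 and F4, and 5360.4, 2064, 5471 and 4506 CPM in Cnt 1 to 4, with Cnt 2 far below the other Cnt libraries. MT-CO2 varied less in Cnt, with 2131, 3876 and 2427 CPM in Fgf20aHOM F2, F3 and F4, and 3666, 3008, 3509.9 and 4002 CPM in Cnt 1 to 4. MT-ATP6, a subunit of ATP synthase, had 405, 574 and 622 CPM in Fgf20aHOM F2, F3 and F4, and 1004, 384, 409 and 1036 CPM in Cnt 1 to 4, so Cnt 1 and 4 were more than 2-fold above Cnt 2 and 3. Of the energy genes encoded in the nucleus, SLC25A5 averaged 3365 CPM in Fgf20aHOM and 3089 CPM in Cnt, and the glycolytic enzyme ALDOA averaged 1117 CPM in Fgf20aHOM and 1213 CPM in Cnt.

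**Figure D1:**
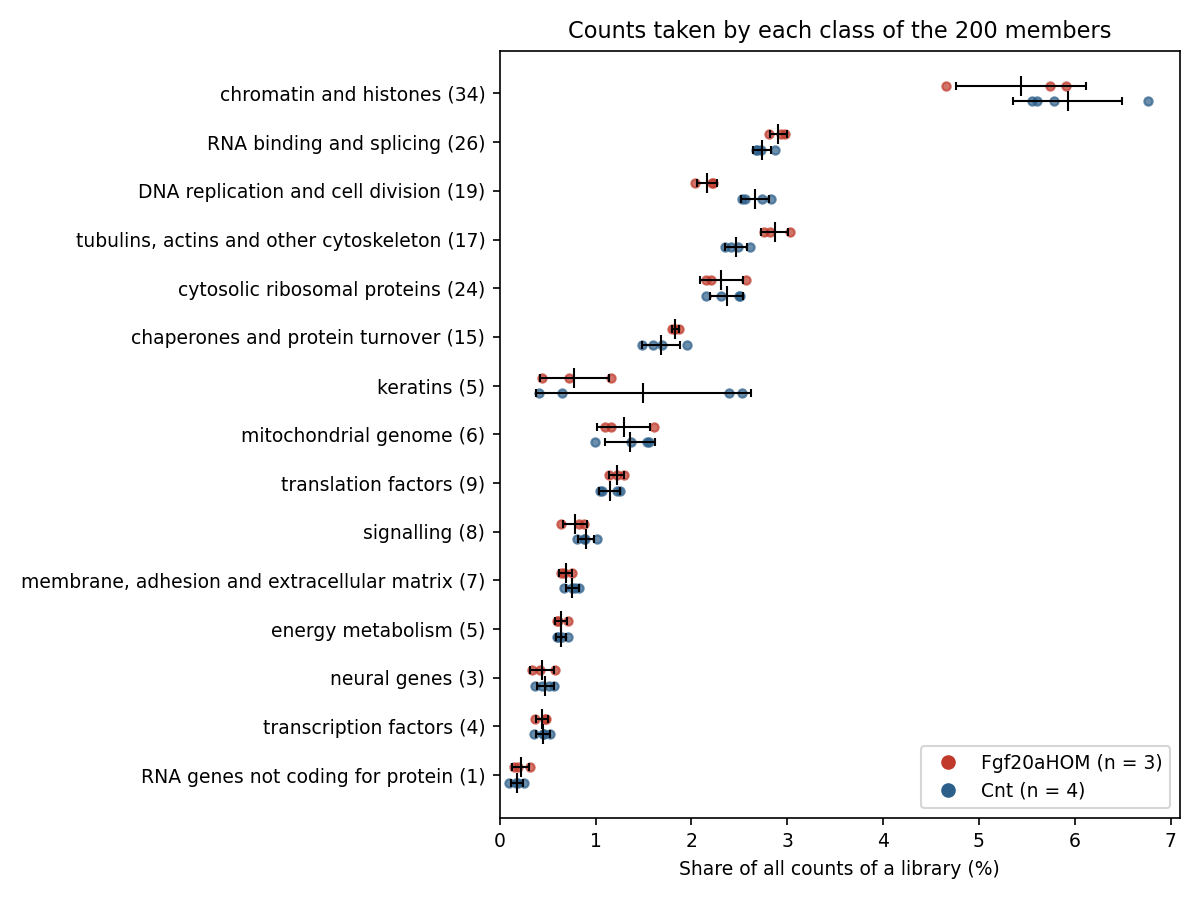
Share of all counts of a library (%, horizontal axis) taken by each of 15 functional classes of the 200 members, with the number of members in brackets. Points are libraries, long ticks are group means and bars are 1 SD (Fgf20aHOM above, Cnt below). The summed cytoskeleton share is higher in all Fgf20aHOM libraries. The summed replication share is lower, in large part through its RRM2 member, and keratins spread widest in Cnt.

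Between libraries of the same group most members were steady. The coefficient of variation (CV, the SD as a percent of the mean) of CPM had a median of 18.3% over the Fgf20aHOM libraries and 19.3% over the Cnt libraries for the members. For the other 19389 IDs tested it was 29.5% in Fgf20aHOM and 38.1% in Cnt, and those IDs hold far fewer counts. In Cnt, 33 members had a CV under 10% and 8 had one above 50%. The steadiest in Cnt were ANP32A (CV 2.04%), an acidic nuclear phosphoprotein, CBX5 (2.08%), MSN (2.29%), which is moesin and links actin to the membrane, cirbpa (2.54%), a cold-inducible RNA-binding protein, and ENSDARG00000080337 (4.07%). ANP32A had 938, 1052 and 1103 CPM in Fgf20aHOM F2, F3 and F4, and 1352, 1335, 1383 and 1396 CPM in Cnt 1 to 4. It was lower in each Fgf20aHOM library than in any Cnt library, as were 6.98% of all genes tested. ANP32A was picked here for its small spread in Cnt, which makes such a separation more likely. The difference did not pass the test (log2 fold change −0.49 ± 0.19 SE, edgeR adjusted p = 0.242).

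The least steady members were keratins. In Cnt the CVs of cyt1, cyt1l and krt4 were 95.2%, 94.6% and 88.6%, followed by the symbol-less ENSDARG00000103442 (59.3%) and krt18a.1 (53.4%). krt4 had 6459, 3729 and 2025 CPM in Fgf20aHOM F2, F3 and F4, and 14195, 785, 2898 and 12004 CPM in Cnt 1 to 4. cyt1l, a type I keratin, had 2616, 1185 and 200.8 CPM in Fgf20aHOM F2, F3 and F4, and 4660.3, 234, 1126 and 6580 CPM in Cnt 1 to 4. cyt1, its close relative, had 924, 969 and 629 CPM in Fgf20aHOM F2, F3 and F4, and 5025, 146, 828 and 3933 CPM in Cnt 1 to 4. These 3 genes were high in Cnt 1 and 4 and low in Cnt 2. Every Fgf20aHOM value lay inside the range of Cnt except that of cyt1l in F4, which was just below it. krt18a.1 ran the other way, with 894, 824 and 994 CPM in Fgf20aHOM F2, F3 and F4, and 696, 2021, 1017 and 805 CPM in Cnt 1 to 4, highest in Cnt 2. krt8 was the steadiest of the 5 in Cnt, with 554 to 695 CPM in Fgf20aHOM and 640.3 to 913 CPM in Cnt.

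The 5 keratin members took 0.443% to 1.16% of counts in Fgf20aHOM and 0.410% to 2.53% in Cnt, and none passed the test. The fitted log2 fold changes were −1.01 for krt4, −1.40 for cyt1l and −1.69 for cyt1, and with 1 surrogate variable in the fit those of krt4 and cyt1l turned to 0.36 and 0.34 and that of cyt1 became −0.10. With a library left out, cyt1l ranged between −2.28 and −0.59. Other epidermis markers, krt5, krt17 and epcam, which are not members, summed to 663, 353 and 111 CPM in Fgf20aHOM F2, F3 and F4, and 500, 59.0, 195 and 678 CPM in Cnt 1 to 4. They too were lowest in Cnt 2 among the Cnt libraries and highest in Cnt 1 and 4. The whole list of 7 epidermis IDs, 4 of them members, summed to between 4340 and 9634 CPM in Fgf20aHOM and between 3924 and 21102 CPM in Cnt. In bulk tissue, fewer cells of a type and less RNA per cell cannot be told apart, and the part of carried-over epidermis in these values was not tested. Without the keratins the members took 27.9% ± 1.70 of counts in Fgf20aHOM and 29.6% ± 0.932 in Cnt.

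**Figure D2:**
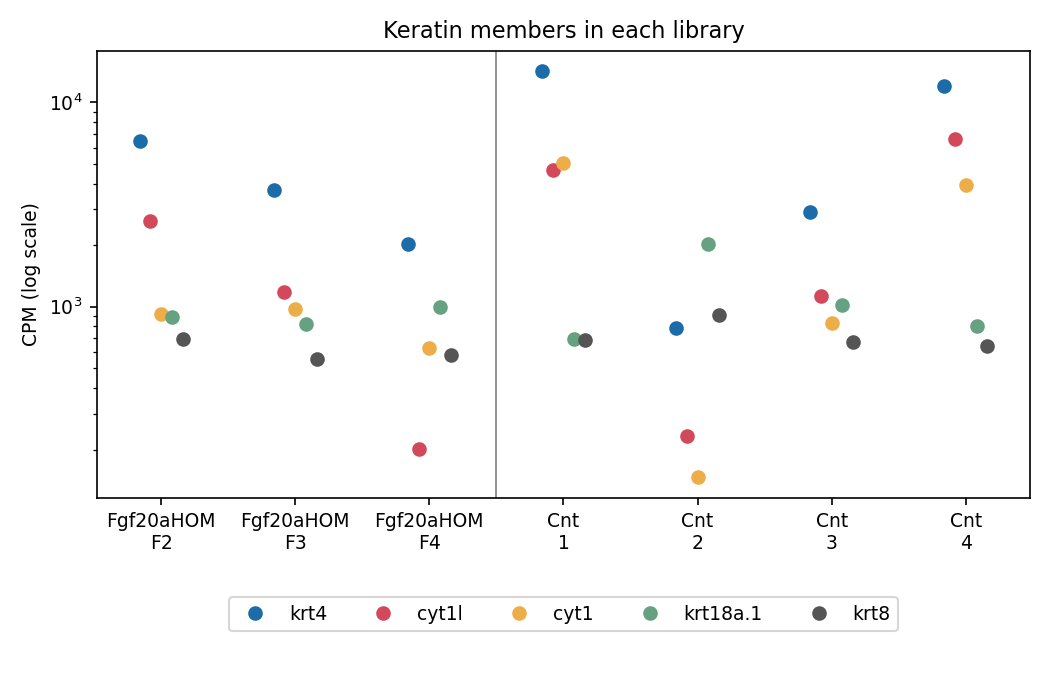
CPM (vertical axis, log scale) of the 5 keratin members in each of the 3 Fgf20aHOM and 4 Cnt libraries, with 1 point for each gene and library. krt4, cyt1l and cyt1 are high in Cnt 1 and Cnt 4 and low in Cnt 2, where krt18a.1 is at its highest (2021 CPM).

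Levels of the members were compared between Fgf20aHOM and Cnt with the edgeR quasi-likelihood test over all 19589 tested genes. The question was which of the abundant genes differ between the 2 groups. A call needed 3 things, namely an adjusted p no higher than 0.01, a difference of 2-fold or more, and normalised counts over 30 throughout 1 of the groups. Only 1 member was called by edgeR, the RRM2 ID ENSDARG00000078069, which fell in Fgf20aHOM. That is 0.5% of the members, beside 0.439% of all genes tested. DESeq2 called 3 members, RRM2, hmgn1b and pfn2b, all lower in Fgf20aHOM, beside 3.08% of all genes it tested. An unadjusted edgeR p under 0.05 was reached by 22 members, which is 11% of them beside 15.6% of all genes. Of these 15 were lower in Fgf20aHOM, beside 7.21% of all genes, and 7 were higher, beside 8.44%.

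Most members differed little between the groups. The fold change stayed within 1.5 in either direction for 180 members (90%), beside 58.5% of the other tested IDs, which are counted less deeply. In the fit only 6 went past 2-fold, namely RRM2, hmgn1b, pfn2b, krt4, cyt1l and cyt1, all of them lower in Fgf20aHOM. The fitted value was below 0 for 149 members (74.5%), beside 52.7% of all genes tested. The median log2 fold change of the members was −0.18, beside −0.05 over all genes tested. The middle 50% of members lay between −0.36 and 0.01. The median was nearer to 0 in a fit without Fgf20aHOM F2 (−0.07), in one without Cnt 4 (−0.05), with 1 surrogate variable (−0.06) and in limma-voom (−0.07). It was farther from 0 without Fgf20aHOM F3 (−0.27), Cnt 2 (−0.24) or Cnt 3 (−0.23). The rule took genes for being high in Cnt. When the 200 highest genes of Fgf20aHOM were taken instead, the median was −0.10, with 123 lower and 77 higher.

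In CPM, the Fgf20aHOM libraries lay all below or all above the Cnt libraries for 25 members (12.5%), beside 17.2% of all genes tested. They lay below for 15 members (7.5%, beside 6.98%) and above for 10 (5%, beside 10.2%). With normalised counts in place of CPM the numbers were 18 below, beside 8.03% of all genes, and 6 above, beside 9.46%. Those below in CPM included the chromatin members hmgn1b, ANP32A, ANP32B and CBX5, the matrix protein SPARC, the kinase CSNK1A1, ID1, MSN, RPS3A and cnbpb. Those above included tubb2b, tuba8l4, HSP90AB1, both HNRNPAB IDs, hnrnpa0l, G3BP1, CTNNB1 and KPNA2.

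**Figure D3:**
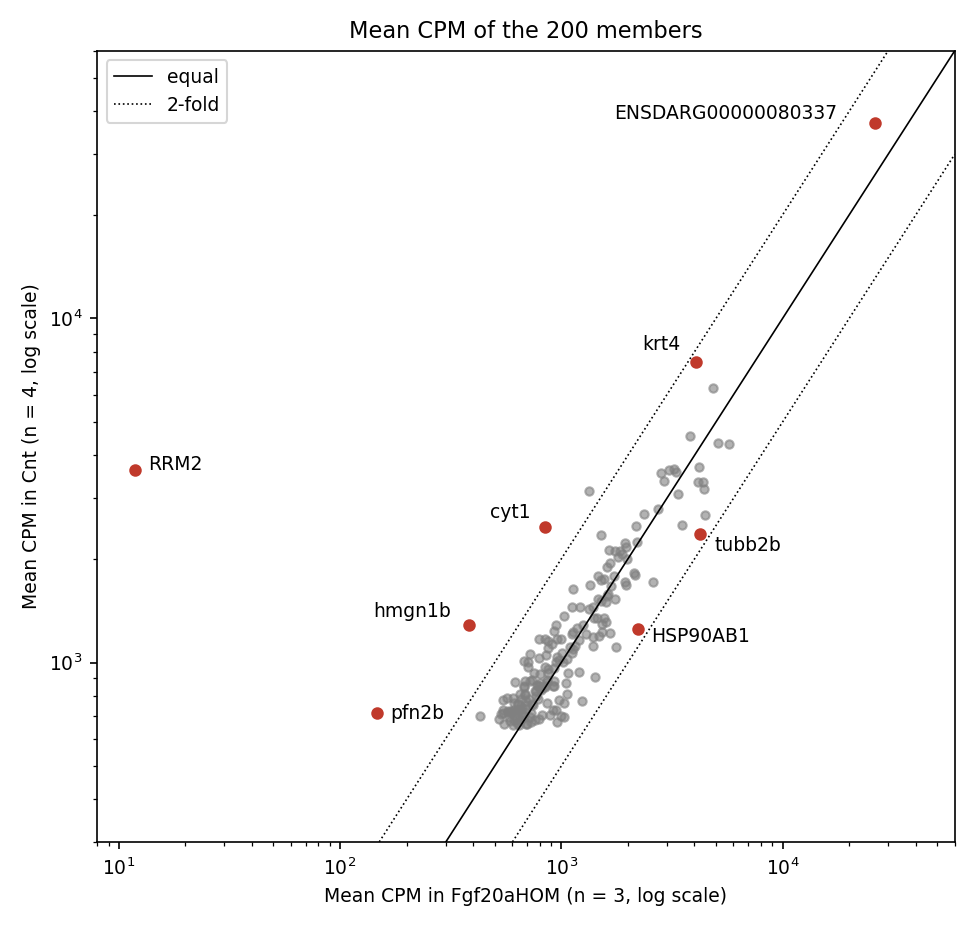
Mean CPM of each of the 200 members in Fgf20aHOM (horizontal axis, n = 3) against Cnt (vertical axis, n = 4), both on log scales, with lines of equal level and of 2-fold difference. RRM2, hmgn1b and pfn2b lie far to the left of the equal line, and tubb2b and HSP90AB1 lie to its right inside the 2-fold line.

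RRM2 makes the small subunit of ribonucleotide reductase, which supplies deoxyribonucleotides for DNA synthesis. Its member ID, ENSDARG00000078069, had 9.66, 11.7 and 14.4 CPM in Fgf20aHOM F2, F3 and F4, against 3942, 2835, 3299 and 4399 CPM in Cnt 1 to 4. This is a log2 difference of −8.34 (SE 0.37) with an edgeR adjusted p of 6.26e-06, and the rank by mean CPM was 8824 in Fgf20aHOM and 10 in Cnt. A further ID with the same symbol, ENSDARG00000020711, did the reverse. It had 2739.7, 3579 and 3834 CPM in Fgf20aHOM F2, F3 and F4, against 18.2, 19.97, 20.6 and 27.1 CPM in Cnt 1 to 4. The log2 difference was 7.21 (SE 0.30), also at an edgeR adjusted p of 6.26e-06. It ranked 14 in Fgf20aHOM and 6672 in Cnt. The sum of both IDs was 3396 ± 575 CPM in Fgf20aHOM (SD, n = 3) and 3640.1 ± 693 CPM in Cnt (SD, n = 4), and the groups overlapped. Tested as 1 gene, the sum had a log2 fold change of −0.19 (edgeR adjusted p = 0.755). The member ID held 0.350% of the summed counts in Fgf20aHOM and 99.4% in Cnt. The files do not show how similar the sequences of these IDs are, and reads shared between near-identical copies are divided by the counting program, so the level of each single ID is uncertain. With both IDs counted, the replication class took 2.32% to 2.61% in Fgf20aHOM and 2.53% to 2.83% in Cnt, with overlap.

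Of the copy pairs among the members, hmgn1 and pfn2 came next. hmgn1b, a nucleosome-binding HMG protein, had 160.1, 236 and 758 CPM in Fgf20aHOM F2, F3 and F4, against 1433, 1085, 1637 and 987 CPM in Cnt 1 to 4. F4 was much closer to Cnt than F2 and F3 were. Fitted on the log2 scale it was −1.82 (SE 0.49), for which edgeR gave an adjusted p of 0.116 and DESeq2 0.00342. The partner hmgn1a overlapped between groups, and the pair summed to 3116 ± 982 CPM in Fgf20aHOM and 4074 ± 389 CPM in Cnt, also with overlap. pfn2b, a profilin that delivers actin monomers, had 48.0, 51.5 and 344 CPM in Fgf20aHOM F2, F3 and F4, against 822, 651, 687 and 694 CPM in Cnt 1 to 4. Again F4 stood apart from F2 and F3. Fitted on the log2 scale it was −2.36 (SE 0.69), for which edgeR gave an adjusted p of 0.159 and DESeq2 0.00159. Without Fgf20aHOM F4, edgeR called it too (−3.92, adjusted p = 0.00126). Together with PFN2 it summed to 1076, 1246 and 1660 CPM in Fgf20aHOM F2, F3 and F4, against 2097, 1875, 1821 and 2102 CPM in Cnt 1 to 4, lower in every Fgf20aHOM library.

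**Figure D4:**
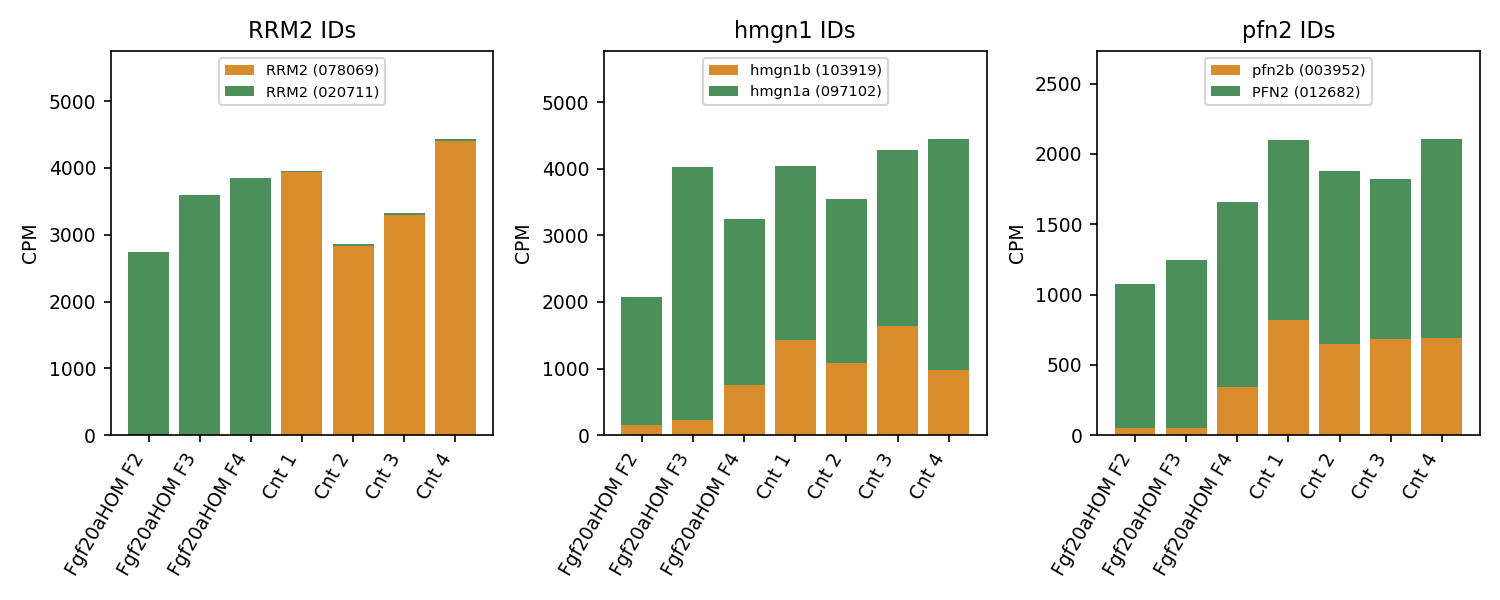
CPM of 3 pairs of IDs stacked in each library (vertical axis, CPM; bars are single libraries, Fgf20aHOM left, Cnt right), with the last 6 digits of each ID in the legend. The RRM2 sum overlaps between groups (3396 ± 575 CPM in Fgf20aHOM, 3640.1 ± 693 CPM in Cnt) while the ID that carries it differs, and pfn2b is short in Fgf20aHOM F2 and F3.

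hmgn1a made 76.6% to 94.1% of the hmgn1 pair in Fgf20aHOM and 61.7% to 77.8% in Cnt, so that balance overlapped. The balance between copies differed without overlap for RRM2 and pfn2. It also did for sumo3, MDK and GLUL, whose sums overlapped. In most of the pairs examined the balance overlapped between the groups. A share over all genes was not worked out for this measure. sumo3a made 66.1% of the sumo3 pair in Fgf20aHOM (63.4% to 68.6%) and 57.1% in Cnt, with sums of 2356 ± 319 CPM in Fgf20aHOM and 2380.2 ± 392.5 CPM in Cnt. The member ID of MDK made 76.4% of both MDK IDs in Fgf20aHOM and 88.2% in Cnt (lowest 82.2%). The sums were 2161 ± 331 CPM in Fgf20aHOM and 2203 ± 460 CPM in Cnt. The member ID of GLUL made 95.4% to 97.4% of both GLUL IDs in Fgf20aHOM and 88.2% to 95.2% in Cnt. The GLUL sums were 1688 ± 303 CPM in Fgf20aHOM and 1690 ± 371 CPM in Cnt. The HNRNPAB IDs moved together instead, and their sum was 3361, 2877 and 2644 CPM in Fgf20aHOM F2, F3 and F4, against 1929, 2172, 2217 and 1886 CPM in Cnt 1 to 4. In CPM each HNRNPAB ID was higher in every Fgf20aHOM library, whereas in normalised counts the groups of ENSDARG00000099865 overlapped. The log2 fold changes were 0.59 (SE 0.21) for ENSDARG00000007960 and 0.26 for ENSDARG00000099865. Neither passed the test (edgeR adjusted p = 0.214 for the first).

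Among the members that were higher, tubb2b came closest to the threshold. This beta tubulin had 5145, 3792 and 3801 CPM in Fgf20aHOM F2, F3 and F4, against 2304, 2392, 2542 and 2220.4 CPM in Cnt 1 to 4. The lowest Fgf20aHOM library was well above the highest Cnt library. Fitted on the log2 scale it was 0.76 (SE 0.18), short of 2-fold. edgeR put its adjusted p at 0.0880, whereas DESeq2 put it at 0.00810. tuba8l4, an alpha tubulin, had 2762, 2674 and 2338 CPM in Fgf20aHOM F2, F3 and F4, against 1237, 1837, 2099 and 1689 CPM in Cnt 1 to 4 (log2 fold change 0.51 ± 0.22 SE, edgeR adjusted p = 0.291). Not all tubulins did this. tuba5 averaged 1747 CPM in Fgf20aHOM and 2111 CPM in Cnt, and tubb4b averaged 1670.0 CPM in Fgf20aHOM and 1673 CPM in Cnt.

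HSP90AB1, a cytosolic Hsp90 chaperone, had 3009, 1831 and 1850 CPM in Fgf20aHOM F2, F3 and F4, against 1181, 1597, 1499 and 729 CPM in Cnt 1 to 4 (log2 fold change 0.76 ± 0.27 SE, edgeR adjusted p = 0.213). F2 was the highest of all libraries, and F3 and F4 were also above the highest Cnt library. CTNNB1, the beta-catenin of cell junctions and Wnt signalling, had 1514, 1124 and 1096 CPM in Fgf20aHOM F2, F3 and F4, against 622, 943, 1023 and 508 CPM in Cnt 1 to 4 (0.62 ± 0.25 SE, edgeR adjusted p = 0.265). actb2 overlapped by its lowest Fgf20aHOM library, with 6292, 3766 and 3288 CPM in Fgf20aHOM F2, F3 and F4, against 2666, 2949, 3542 and 1552 CPM in Cnt 1 to 4. The fitted log2 value of 0.66 (SE 0.29) missed the threshold at an edgeR adjusted p of 0.299.

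Among the members that were lower, FABP3, a fatty acid binding protein, had 1540.5, 1708 and 1307 CPM in Fgf20aHOM F2, F3 and F4, against 2303, 1657, 2307 and 3126 CPM in Cnt 1 to 4 (log2 fold change −0.73 ± 0.28 SE, edgeR adjusted p = 0.238). Cnt 2 fell within the Fgf20aHOM range. CSNK1A1, casein kinase 1 alpha, had 596, 789.7 and 465 CPM in Fgf20aHOM F2, F3 and F4, against 857, 819.8, 972 and 873 CPM in Cnt 1 to 4 (−0.59 ± 0.23 SE, edgeR adjusted p = 0.259). SPARC, a collagen-binding matrix protein, had 449.96, 582 and 612 CPM in Fgf20aHOM F2, F3 and F4, against 728, 651, 701 and 831 CPM in Cnt 1 to 4 (−0.50 ± 0.22 SE, edgeR adjusted p = 0.316). CSNK1A1 and SPARC did not overlap between groups in CPM, but neither passed the test. In normalised counts the groups of CSNK1A1 overlapped. ID1 had 657, 1074 and 1065 CPM in Fgf20aHOM F2, F3 and F4, against 1167, 1227, 1104 and 1429 CPM in Cnt 1 to 4, and its F3 and F4 values were close to the lowest Cnt value.

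The set of abundant genes was largely shared. Of the 200 members, 174 (87%) were also among the 200 highest IDs of Fgf20aHOM, which is 87% of either list, and 16 of the first 20 stayed in the first 20. Of the 26 that were not shared, 22 stood no lower than rank 259 in Fgf20aHOM. The other 4 were RRM2, hmgn1b at rank 395, pfn2b at rank 1401 and ENSDARG00000103339 at rank 330. The highest of the IDs found only in the Fgf20aHOM list, after the RRM2 ID, was SUPT16H, a subunit of the histone chaperone FACT, with a mean of 961 ± 159 CPM in Fgf20aHOM and 396 ± 107 CPM in Cnt. For its log2 fold change of 1.19, edgeR gave an adjusted p of 0.0411, above the limit of 0.01, and DESeq2 7.28e-04. Next came pabpc1a, SERBP1, SYNCRIP, eif4a1a, a further SOX11 ID, SMARCA4, HNRNPU and sox19a, with means between 777 and 951 CPM in Fgf20aHOM and between 434 and 613 CPM in Cnt. Within single libraries the lists moved more, and 114 members were among the 200 highest of every library.

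At the lower edge, the last 5 members (mapre1b, cnbpb, NOP58, ABCF2 and RPS12) had means of 664 to 657 CPM in Cnt, and the next 5 IDs (tpm3, ppiab, NAA40, VDAC1 and LMNB2) had means of 645 to 632 CPM. The SDs of those next 5 over the Cnt libraries, 48.5 to 155 CPM, were larger than these steps. Choosing the members without 1 of the Cnt libraries kept at least 191 of the 200.

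The libraries of each group differed from each other over many members at once. The counts of members here and in the next paragraph were not made over all genes tested. Since the members were chosen on Cnt levels, these counts do not show a trait particular to them. Relative to the Cnt mean, the median member stood at −0.34 on the log2 scale in Fgf20aHOM F2, at −0.01 in F3 and at −0.04 in F4, against −0.05, −0.10, −0.03 and 0.07 in Cnt 1 to 4. F2 was below every Cnt library for 114 members, whereas F3 was for 24 and F4 for 31. Cnt 4 was the highest Cnt library for 89 members and Cnt 2 the lowest for 84. Both held for 64 members, among them HMGB2, PCNA, HMGN2, ptmab, RRM2, MT-CO2 and SET, and F2 was the lowest Fgf20aHOM library for 62 of those (135 of all 200). HMGB2 had 3920.0, 5219 and 5446 CPM in Fgf20aHOM F2, F3 and F4, and 5755, 5262, 6058 and 8029 CPM in Cnt 1 to 4. PCNA had 3174, 4169.9 and 4082 CPM in Fgf20aHOM F2, F3 and F4, and 4461, 3245, 4375 and 6165 CPM in Cnt 1 to 4.

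The opposite order, highest in Cnt 2 and lowest in Cnt 4, was found in 37 members, and F2 was the highest Fgf20aHOM library for 22 of them (43 of all 200). hmga1a, HSPA8, eef1a1l1, SLC25A5, actb1 and malat1 were in this set. HSPA8 had 5768, 3761 and 3565 CPM in Fgf20aHOM F2, F3 and F4, and 2832, 5826, 3022 and 1679 CPM in Cnt 1 to 4. eef1a1l1 had 5754, 3964 and 3477 CPM in Fgf20aHOM F2, F3 and F4, and 2790, 4686, 3437 and 1895 CPM in Cnt 1 to 4. Its order across Cnt is the reverse of that of HMGB2 at both ends. By class, Cnt 4 was the highest Cnt library for 22 of 34 chromatin members and F2 the lowest Fgf20aHOM library for 26 of them. Cnt 4 had the lowest number of genes with a count (19971) and the smallest TMM factor (0.879), and Fgf20aHOM F2 had the highest number (22230) and the largest factor (1.07). The part of these library measures in the pattern was not tested.

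**Figure D5:**
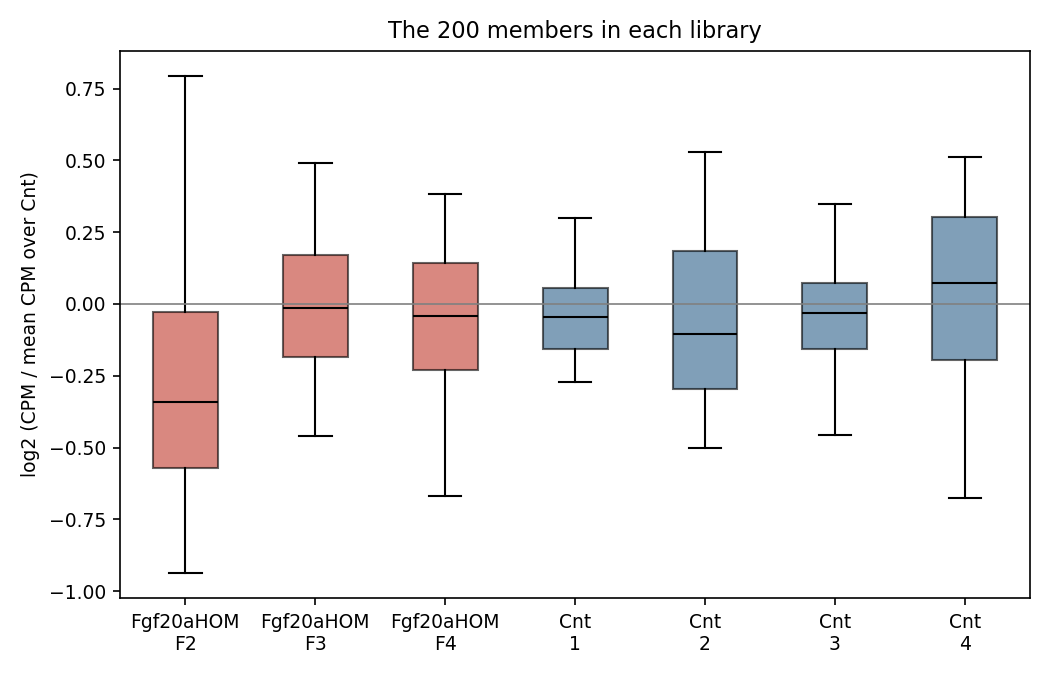
Level of the 200 members in each library relative to the Cnt mean (vertical axis, log2 of CPM over mean Cnt CPM); lines are medians, boxes the middle 50% of members and whiskers the 5th to 95th percentile. Fgf20aHOM F2 sits lowest with a median of −0.34, and the other libraries lie between −0.10 and 0.07.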

How the data were processed

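The authors amplified cDNA from total RNA with the NuGEN Ovation RNA-Seq System V2, and used Nextera XT for libraries, which gave paired reads of 75 bases. Alignment was done with STAR 2.5.1b through RSEM 1.2.31 to GRCz10 with Ensembl 89. The deposited values are estimated counts per gene from RSEM, rounded by the authors and tested like the plain counts that had been planned for, without scaling for depth (52900433 to 69801072 per library). RSEM divides reads that fit several genes between them, so copies of a gene are uncertain. Use of strand and of molecular identifiers is not given in the sources used here, and nothing states whether embryos of a group shared a clutch. The p-values set the difference between the groups against the spread between these libraries. They do not cover the spread between lines, and whether they cover that between clutches is not known.

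The members are the 200 IDs with the highest mean CPM over Cnt. Members and gene lists were chosen with earlier results of these data known. Symbols came from a table of gene names (26350 of 32189 IDs, 81.9%), which often omits the letter of a copy. Classes were set by symbol, some by hand. Named genes were the 20 highest members, called members, the 3 highest of each class, the edge of the list, the 5 most and least variable, IDs sharing a called symbol and the 10 highest of Fgf20aHOM outside the list, of which some are not reported here. HMG genes, copy pairs, other members with an unadjusted p under 0.05 or without overlap were named after their values were seen. Sums over the hnRNP, tubulin, actin and MCM members were not planned beforehand.

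Groups were compared with the edgeR 4.0.16 quasi-likelihood F test (R 4.3.3, TMM, filterByExpr, robust, genotype only, two-sided) with Benjamini-Hochberg adjustment over 19589 genes. Calls needed an adjusted p up to 0.01, a 2-fold difference and normalised counts over 30 throughout a group. The SE is the log2 fold change over the root of F. Sums and medians over members were given without tests. The fit was tested on simulated data with less spread between libraries than was fitted over all genes here. The simulated fold changes were also larger than those of most members. That run therefore does not show how the fit does on small changes. Alternatives were DESeq2 1.42.0, limma-voom (limma 3.58.1), other scalings and filters, 1 surrogate variable (sva 3.50.0), other member rules and each library left out. No gene positions or sequences were used here.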

Additional observations from a re-analysis of the deposited data

Results flagged for a closer look

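Of 109 measures examined over the 4 Cnt libraries, 3 had a library far from the others by Dixon's ratio (its gap to the nearest library divided by the whole range, set against the 95% critical value for 4 samples), where chance alone gives about 5.45, or 1 in 20. ptmab, a prothymosin of chromatin, had a ratio of 0.902, with 4922 CPM in Cnt 4 and 3101 to 3279 CPM in the other Cnt libraries. Cnt 4 was also the highest Cnt library for 89 members, ptmab included. MSN had a ratio of 0.8295, just above the critical value, with 748 CPM in Cnt 1 and 714 to 720 CPM in the others, a small gap in a steady gene. eif4a1a, a translation initiation helicase that is abundant in Fgf20aHOM but not a member, had a ratio of 0.909, with 633 CPM in Cnt 1 and 495 to 507 CPM in the others.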

How the results depend on the processing

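The number of members called changed was 1 with edgeR. It was 3 with DESeq2, and 2 with members chosen by the mean over all 7 libraries, namely both RRM2 IDs. With 400 members it was 2, and with a library left out 1 to 2 (2 without Fgf20aHOM F4). Without IDs lacking a symbol and mitochondrial genes, the members took 26.2% of counts in Fgf20aHOM and 27.9% in Cnt. With 1 surrogate variable the log2 fold changes of krt4 and cyt1l reversed to 0.36 and 0.34. That of SOX3 (0.03) ranged between −0.10 and 0.13 with a library left out, and was negative without Cnt 3, Fgf20aHOM F3 or Fgf20aHOM F4. The causes were not tested. RRM2 ENSDARG00000078069 kept its call in all 16 other fits (−8.49 to −8.13) and lost it when both RRM2 IDs were summed. Over all genes, 86 were called with edgeR, 634 with DESeq2, 46 with 1 surrogate variable, 296 with an adjusted p of at most 0.05 alone, and 15 to 69 with a library left out. No paired analysis was possible because each library came from a separate embryo and nothing given matches mutant to wild-type embryos. The column numbers of the Fgf20aHOM libraries (F2 to F4) differ from the numbers in the sample titles, so replicate numbers define no pairs. The values without keratins and the overlap in normalised counts were added after the data were seen. Every member had at least 146 CPM in each Cnt library, whereas the RRM2 member had as little as 9.66 CPM in Fgf20aHOM. Counting error was not set against the spread between libraries.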
